A study of Mus musculus with 12 samples.

Results

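Microglia and brain macrophages were followed through 40 genes that mark them, chosen by gene symbol among the 55536 genes counted. The genes form 4 classes. The homeostatic class has 12 genes of resting microglia, the pan-myeloid class has 11 genes shared by microglia and other myeloid cells, the disease-associated class has 10 genes of reactive microglia, and the border macrophage and antigen presentation class has 7 genes. All 40 symbols matched a gene, and *Snx14* was added as the targeted gene.

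Microglia are the resident macrophages of the brain parenchyma. They depend on signalling through the receptor CSF1R, survey the tissue with purinergic and chemokine receptors, and clear debris through phagocytosis and the lysosome. In injured or ageing brain, microglia can lower homeostatic genes such as *P2ry12* and *Tmem119* and turn on a set led by *Cst7*, *Clec7a*, *Itgax*, *Lpl* and *Spp1*. Full induction of that set depends on the receptor TREM2 and its partner TYROBP. A separate population, the border macrophages, sits in the meninges, perivascular spaces and choroid plexus and carries *Mrc1*, *Cd163*, *F13a1* and *Lyve1*. Several genes of the disease-associated class, among them *Spp1*, *Lpl*, *Axl*, *Cd9* and *Cd63*, are also made by neurons, astrocytes or oligodendrocytes.

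RNA-Seq was performed on cerebellum and cerebral cortex of mice at 1 month of age. Each tissue was represented by 3 WT and 3 *Snx14*-KO libraries, 12 in all, and the labels give the same mouse numbers in both tissues. *Snx14*-KO mice carried, in all cells, a frameshift deletion in *Snx14* that was made with Cas9 in C57BL/6J embryos and backcrossed to C57BL/6J, and the controls were WT mice. Libraries came from whole pieces of tissue, which the labels call a mix of cell types, and 1-year-old mice were not analysed here.

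Totals on genes ran from 16672589 to 19887427 counts per library. Levels are given as CPM, counts scaled to library size after TMM normalization over the 12 libraries. No pair of replicates agreed within sampling noise. *Snx14* was at 63.9, 63.6 and 67.0 CPM in WT cerebella 1 to 3 and at 10.4, 10.9 and 11.2 CPM in *Snx14*-KO cerebella, and at 53.6, 55.1 and 59.8 CPM in WT cortices and 8.5, 7.95 and 7.69 CPM in *Snx14*-KO cortices. The 6 *Snx14*-KO libraries thus lay below the 6 WT libraries. Summed markers of cerebellar granule cells were at 2343 to 3252 CPM in cerebellum and 32.9 to 47.8 CPM in cortex, and those of forebrain neurons at 415 to 519 CPM in cerebellum and 4911 to 5602 CPM in cortex. A pair of libraries stood apart by high values of the microglial genes. *Snx14*-KO cerebellum replicate 3 was the highest of the 6 cerebellar libraries for 35 of the 40 genes, where it was the highest for 17.6% of all genes tested. *Snx14*-KO cortex replicate 2 was the highest of the 6 cortical libraries for 28 of the 40 genes, where it was the highest for 22.9% of all genes. The labels assign these libraries to different mice, and the main results are given below with and without them. At the low end, WT cerebellum replicate 1 was the lowest of the 6 cerebellar libraries for 23 of the 40 genes. It was the lowest for 17% of all genes tested. Because whole tissue was sequenced, a change in the number of cells of a type and a change in RNA per cell cannot be told apart.

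The first comparison asked which microglial genes differ in the cerebellum of *Snx14*-KO mice. All 39 members tested were higher in *Snx14*-KO than in WT cerebella, and their median log2 fold change was 0.98, where the median over all 18201 genes tested was -0.00. The medians were 0.48 for the homeostatic class, 1.09 for the pan-myeloid class, 1.01 for the disease-associated class and 1.07 for the border macrophage class. A gene was called when its Benjamini-Hochberg adjusted p from the quasi-likelihood test of edgeR was under 0.05 and its log2 fold change was beyond 0.50 in size. No member was called, against 0.00549% of all genes. At an unadjusted p under 0.05, 22 members were higher and 0 lower, where 5.78% of all genes were higher and 2.37% lower. Without *Snx14*-KO replicate 3, only *Fcrls*, *Olfml3*, *Cd68*, *Axl*, *Mrc1*, *F13a1*, *Lyve1*, *Cd74* and *H2-Aa* were still under it. The 3 *Snx14*-KO values exceeded the 3 WT values for 11 of 40 members and were all lower for 0, against 6.22% and 6.32% of all genes. With normalization within the tissue, 6.99% and 5.25% of all genes did so. DESeq2 called 3 members, *Olfml3*, *Mrc1* and *Cd74*, and 0.901% of all genes. Without a filter on low counts 13 members and 1.10% of all genes were called. Leaving out *Snx14*-KO replicate 2 gave 0 members and 1.36% of genes, and 1 fit of all 12 libraries 0 members and 0.232%. Without WT replicate 1, the median was 0.81 over the 40 members then tested and 0.88 for the border macrophage class.

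**Figure D1:**
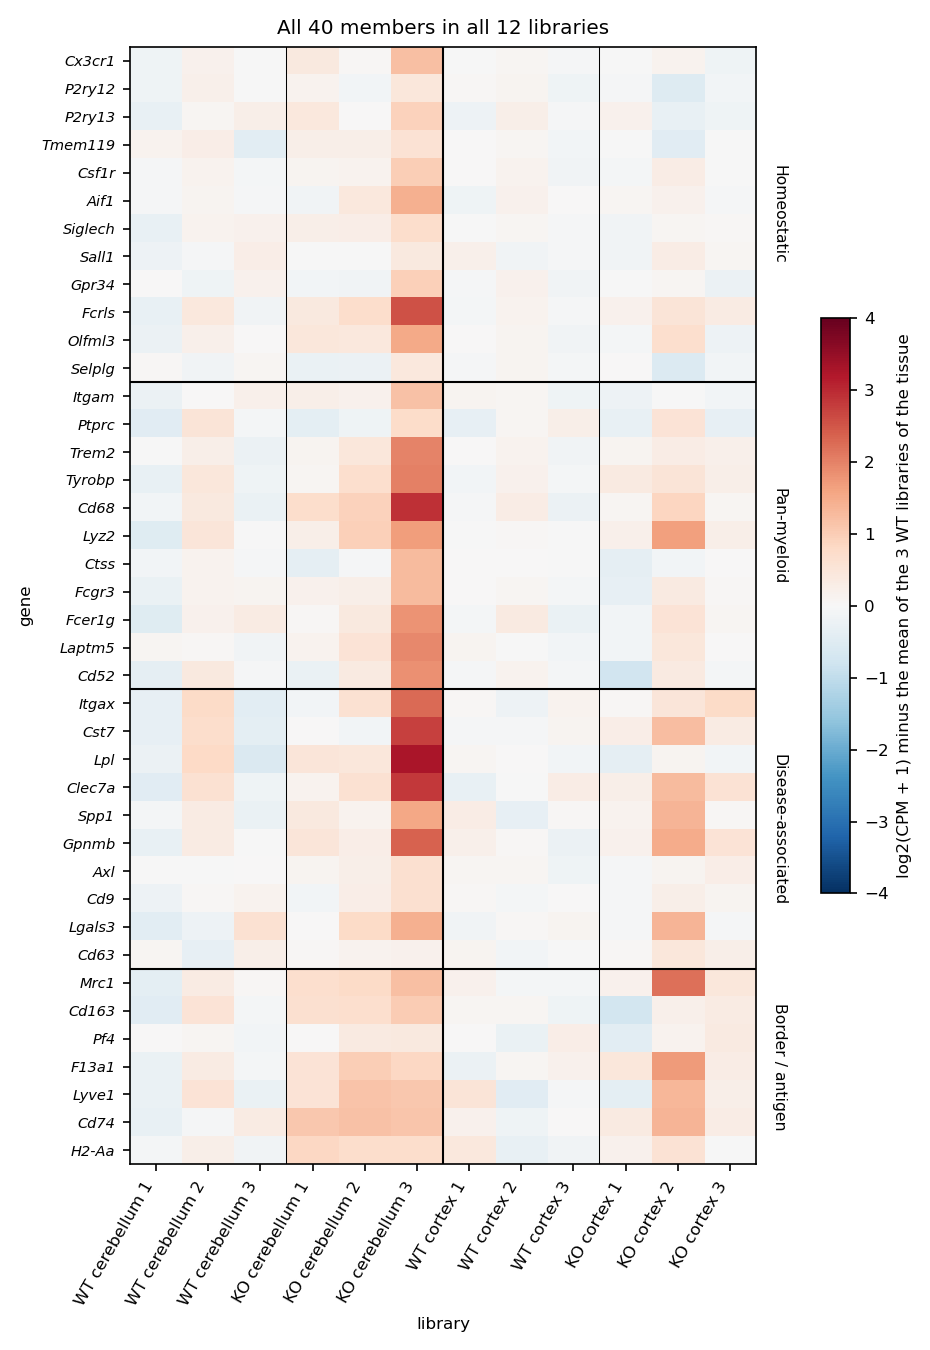
Each row is 1 of the 40 genes and each column 1 of the 12 libraries, and colour gives log2(CPM + 1) minus the mean of the 3 WT libraries of the same tissue. *Snx14*-KO cerebellum replicate 3 is red in the homeostatic, pan-myeloid and disease-associated classes, while the lowest rows, the border macrophage class, are red in all 3 *Snx14*-KO cerebella, except for *Pf4* in replicate 1.

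The spread between the 3 *Snx14*-KO cerebella differed by class. A score was computed per library as the mean over a class of log2(CPM + 1), set to 0 at the mean of the WT libraries of the tissue. The homeostatic score was 0.15, 0.15 and 1.00 in *Snx14*-KO cerebella 1 to 3, against -0.13 to 0.12 in WT cerebella. The pan-myeloid score was 0.07, 0.41 and 1.68, against -0.24 to 0.27. The first *Snx14*-KO library lay just above the WT range in the homeostatic class and within it in the pan-myeloid class, and the third lay far above it in both. The disease-associated score was 0.15, 0.34 and 1.79 in *Snx14*-KO cerebella, against -0.23 to 0.31 in WT cerebella. The border macrophage score was 0.62, 0.83 and 0.91, against -0.24 to 0.29. This was the class in which the *Snx14*-KO libraries lay together and apart from WT.

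Among homeostatic genes, *Cx3cr1*, the fractalkine receptor, was at 15.3, 19.7 and 17.3 CPM in WT cerebella 1 to 3 and at 23.0, 17.9 and 41.5 CPM in *Snx14*-KO cerebella 1 to 3. The second *Snx14*-KO library lay within the WT values and the third was 2.38 times the WT mean. *Fcrls*, an Fc receptor-like gene of mouse microglia, was at 7.56, 13 and 8.48 CPM in WT and 12.8, 16.0 and 59.4 CPM in *Snx14*-KO cerebella, with the first *Snx14*-KO library below the highest WT library. *Olfml3*, a secreted olfactomedin-like protein, was at 6.73, 9.46 and 8.11 CPM in WT and 11.4, 11.1 and 25.0 CPM in *Snx14*-KO cerebella, so the groups did not overlap. The log2 fold changes were 0.67 ± 0.27 (SE, adjusted p = 0.555) for *Cx3cr1*, 1.62 ± 0.54 (adjusted p = 0.430) for *Fcrls* and 0.98 ± 0.31 (adjusted p = 0.408) for *Olfml3*. Without *Snx14*-KO replicate 3 they were 0.23, 0.57 and 0.48.

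The purinergic receptor *P2ry12*, which senses nucleotides from damaged cells, differed little. It was at 11.9, 15.9 and 13.5 CPM in WT and at 15.2, 12.7 and 18.9 CPM in *Snx14*-KO cerebella, for a log2 difference of 0.20 ± 0.17 (SE) with overlapping groups. *Tmem119*, a membrane protein used to tell microglia from other macrophages, had a log2 fold change of 0.38 ± 0.21, and *Sall1*, a transcription factor of microglial identity, one of 0.14 ± 0.19. *Csf1r*, the receptor for CSF1 and IL-34, was at 45.8, 52.3 and 45.7 CPM in WT and 51.4, 53.3 and 95.7 CPM in *Snx14*-KO cerebella, with the first *Snx14*-KO library inside the WT values. Without *Snx14*-KO replicate 3 the log2 fold changes were 0.02 for *P2ry12*, 0.22 for *Tmem119* and 0.13 for *Csf1r*. The 12 members of the class spanned log2 fold changes from 0.02 (*Selplg*, a ligand of selectins) to 1.62, and 4 of 12 had an unadjusted p under 0.05. In *Snx14*-KO replicate 3 the class ran from 1.32 to 6.13 times the WT mean, with a median of 2.02.

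The pan-myeloid class held the gene of smallest adjusted p outside the border macrophage class. *Cd68*, a lysosomal glycoprotein of phagocytes, was at 2.5, 4.04 and 2.15 CPM in WT and at 5.21, 6.29 and 27.8 CPM in *Snx14*-KO cerebella. All 3 *Snx14*-KO libraries lay above WT, and the third was 9.61 times the WT mean. *Lyz2*, a lysozyme of macrophages and neutrophils, was at 7.84, 16.3 and 11.3 CPM in WT and 13.7, 23.0 and 38.1 CPM in *Snx14*-KO cerebella, with the first *Snx14*-KO library inside the WT values. *Laptm5*, a lysosomal membrane protein of blood-derived lineages, was at 11.3, 10.8 and 9.5 CPM in WT and 11.7, 16.0 and 42.4 CPM in *Snx14*-KO cerebella, where the groups did not overlap but the first *Snx14*-KO library was 1.11 times the WT mean. The log2 fold changes were 2.20 ± 0.62 (SE, adjusted p = 0.358) for *Cd68*, 1.09 ± 0.37 (adjusted p = 0.433) for *Lyz2* and 1.16 ± 0.41 (adjusted p = 0.465) for *Laptm5*. They were 0.99, 0.64 and 0.39 without *Snx14*-KO replicate 3.

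The receptor *Trem2* was at 6.56, 7.85 and 5.48 CPM in WT and at 7.22, 9.32 and 29.0 CPM in *Snx14*-KO cerebella, and its signalling partner *Tyrobp* at 5.5, 9.87 and 6.01 CPM in WT and 7.41, 11.6 and 31.1 CPM in *Snx14*-KO cerebella. For both genes the first *Snx14*-KO library lay within the WT values and the third was 4.37 times the WT mean. Their log2 fold changes were 1.21 and 1.25, and 0.32 and 0.42 without replicate 3. The leukocyte phosphatase *Ptprc* had the smallest difference of the class, with 2.17, 5.19 and 3.06 CPM in WT and 2.29, 2.81 and 6.17 CPM in *Snx14*-KO cerebella. Of the 11 pan-myeloid genes, 7 had an unadjusted p under 0.05, all higher, and only *Cd68* did without replicate 3. The ratio of the 11 genes to the WT mean had a median of 1.09 in *Snx14*-KO replicate 1, 1.41 in replicate 2 and 3.98 in replicate 3.

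In the disease-associated class, *Axl*, a receptor tyrosine kinase for clearing dying cells, was at 56.5, 57.0 and 57.7 CPM in WT and at 61.7, 67.5 and 89.0 CPM in *Snx14*-KO cerebella. *Axl* was the member of this class whose groups did not overlap, with a log2 fold change of 0.37 ± 0.13 (SE, adjusted p = 0.455). *Gpnmb*, a transmembrane glycoprotein of lipid-laden phagocytes, was at 1.89, 3.46 and 2.52 CPM in WT and 4.02, 3.31 and 17.2 CPM in *Snx14*-KO cerebella, for a log2 difference of 1.66 ± 0.60 (adjusted p = 0.474). The lipoprotein lipase gene *Lpl* was at 1.45, 4.10 and 0.966 CPM in WT and 3.11, 2.98 and 27.1 CPM in *Snx14*-KO cerebella, for a log2 difference of 2.38 ± 0.90 (adjusted p = 0.497). For *Gpnmb*, *Snx14*-KO replicate 2 lay below the highest WT library, and for *Lpl* replicates 1 and 2 did. Without replicate 3 the log2 fold changes were 0.18 for *Axl*, 0.48 for *Gpnmb* and 0.50 for *Lpl*.

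*Cst7*, which encodes the protease inhibitor cystatin F, was too low in most libraries to be tested. It had 1, 20 and 0 counts in WT cerebella and 7, 4 and 143 counts in *Snx14*-KO cerebella, the last being 19.2 times the WT mean in CPM. *Clec7a*, a receptor for fungal glucans, had 9, 38 and 16 counts in WT and 27, 39 and 251 counts in *Snx14*-KO cerebella, and the integrin *Itgax* had 1, 22 and 0 counts in WT and 5, 19 and 101 counts in *Snx14*-KO cerebella. All 3 genes shared a layout, in which WT replicate 2 was the highest WT library and *Snx14*-KO replicate 3 was far above the other 5 libraries. The tetraspanins *Cd9* and *Cd63*, which many brain cells make, differed little, with log2 fold changes of 0.30 ± 0.18 (SE) and 0.12 ± 0.13, and of 0.08 and 0.09 without *Snx14*-KO replicate 3. In *Snx14*-KO replicate 3 the 10 genes ran from 1.11 to 19.2 times the WT mean, with a median of 4.89.

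Genes of border macrophages and antigen presentation had the smallest adjusted p values of the 40. *Cd74*, the invariant chain of MHC class II, was at 1.89, 2.42 and 3.38 CPM in WT and at 6.45, 6.89 and 6.5 CPM in *Snx14*-KO cerebella. *H2-Aa*, an MHC class II alpha chain, was at 1.17, 1.73 and 1.07 CPM in WT and 3.11, 2.76 and 2.76 CPM in *Snx14*-KO cerebella. *Mrc1*, the mannose receptor, was at 2.78, 5.14 and 4.13 CPM in WT and 6.88, 7.33 and 10.4 CPM in *Snx14*-KO cerebella. In these 3 genes each *Snx14*-KO library lay above each WT library, and for *Cd74* and *H2-Aa* replicate 3 was not the highest *Snx14*-KO library. The log2 fold changes were 1.37 ± 0.23 (SE, adjusted p = 0.145) for *Cd74*, 1.13 ± 0.27 (adjusted p = 0.248) for *H2-Aa* and 1.04 ± 0.26 (adjusted p = 0.260) for *Mrc1*.

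The other border macrophage genes had the same direction. *F13a1*, coagulation factor XIII A, was at 1.45, 2.71 and 1.77 CPM in WT and 3.30, 4.85 and 4.22 CPM in *Snx14*-KO cerebella, and *Cd163*, the haemoglobin scavenger receptor, at 1.00, 2.94 and 1.56 CPM in WT and 3.20, 3.36 and 4.55 CPM in *Snx14*-KO cerebella. Neither gene had overlapping groups. The hyaluronan receptor *Lyve1* (0.376 to 1.44 CPM in WT, 1.43 to 2.7 CPM in *Snx14*-KO cerebella) and the platelet factor *Pf4* (0.644 to 0.866 and 0.765 to 1.30 CPM) overlapped. In the 7 genes of the class, 6 had an unadjusted p under 0.05 and 5 did not overlap. Without *Snx14*-KO replicate 3 the class median was 1.04, while it was 0.23 for the homeostatic, 0.23 for the pan-myeloid and 0.48 for the disease-associated class. Over the 39 members tested, the median without this library was 0.27, and *Sall1* (-0.03), *Gpr34* (-0.17), *Selplg* (-0.27), *Ptprc* (-0.44) and *Ctss* (-0.21) then had log2 fold changes below 0.

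**Figure D2:**
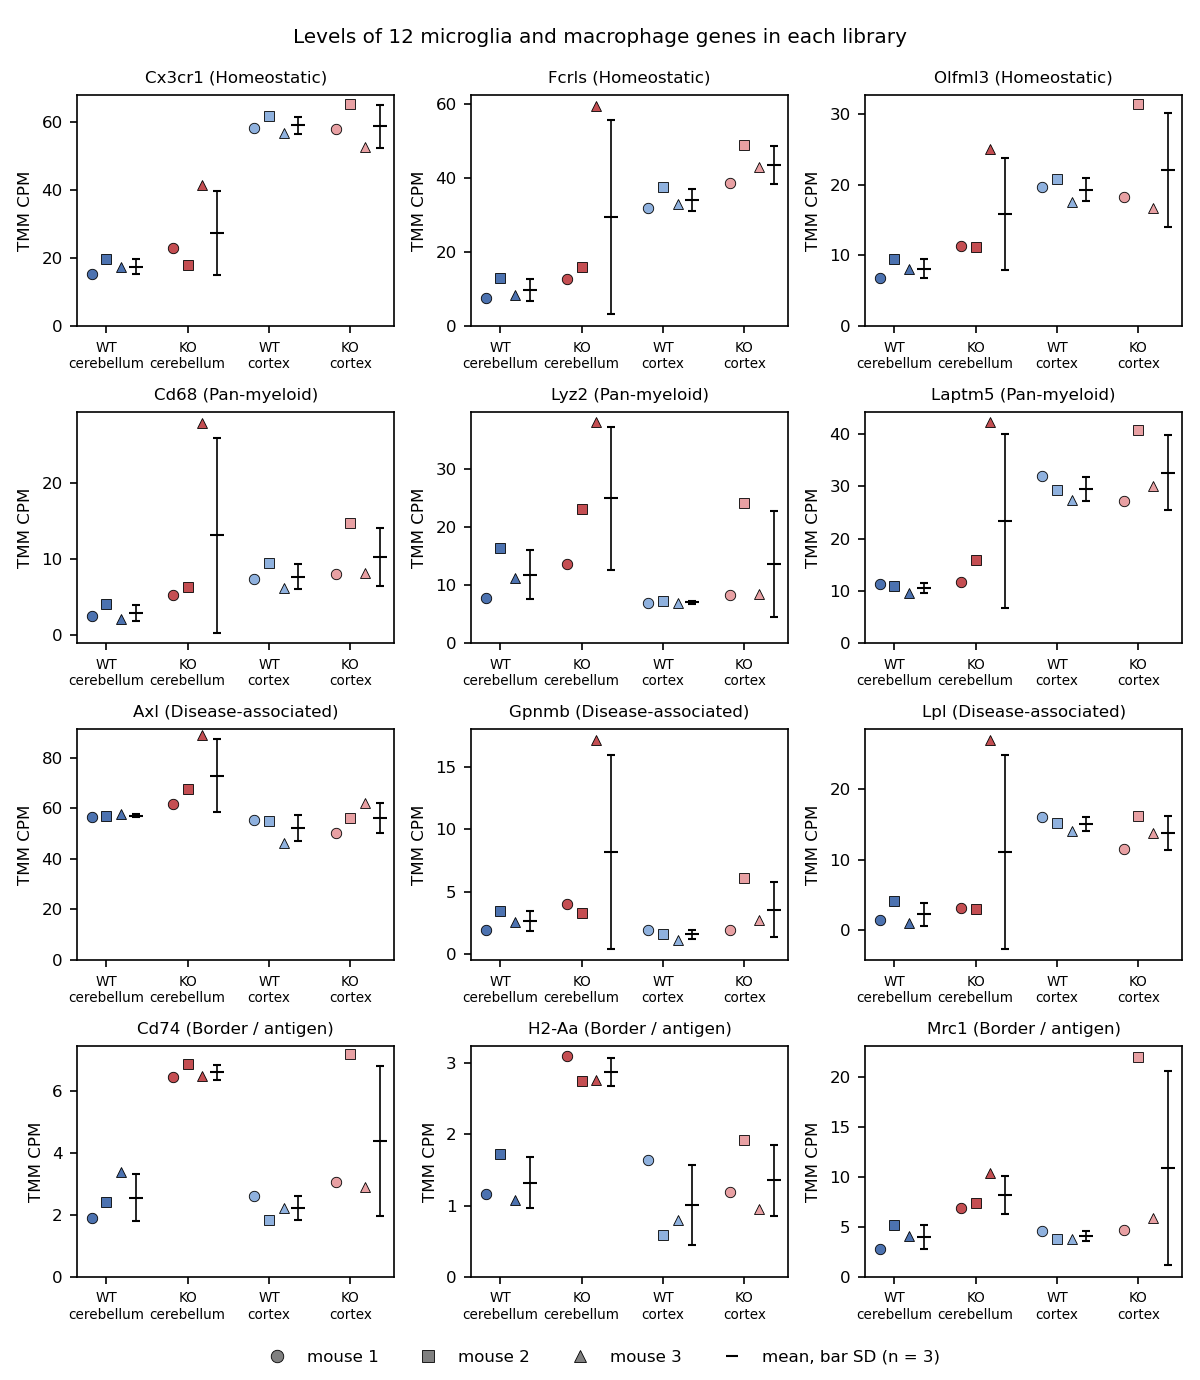
Levels in CPM of 12 genes, the 3 of each class with the smallest unadjusted p in cerebellum, with 1 symbol per library (shape gives the mouse number within a genotype) and the mean ± SD of 3 libraries beside them. For *Cd68*, *Gpnmb* and *Lpl* the triangle of *Snx14*-KO cerebellum 3 stands alone, whereas for *Cd74* and *H2-Aa* all 3 *Snx14*-KO cerebella lie above all WT cerebella.

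Markers of other cell types moved with these genes. Summed reactive astrocyte markers, 8 genes led by *Gfap*, were at 531 to 567 CPM in WT cerebella and at 618, 753 and 1290 CPM in *Snx14*-KO cerebella 1 to 3, so the library with the highest microglial scores was also the highest here. Summed Purkinje cell markers, 6 genes, were lowest in that library, at 7253 CPM against 9042 to 10370 CPM in the other 5. Summed meningeal fibroblast markers, 12 genes, were at 176 to 347 CPM in WT and 467 to 499 CPM in *Snx14*-KO cerebella, and 10 of the 12 genes did not overlap, a layout like that of the border macrophage class. Choroid plexus markers, 7 genes, varied from 82.5 to 7392 CPM among WT cerebella and from 969 to 3200 CPM among *Snx14*-KO cerebella. The part of these cell types in the differences was not tested.

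Blood cells were checked in the same way. The 8 lymphocyte markers summed to 0.445 to 1.30 CPM per cerebellar library, with at most 12 counts on any of these genes in a library of the series, and 0 of 8 could be tested. The 5 red blood cell markers summed to 168 to 415 CPM in WT and 119 to 309 CPM in *Snx14*-KO cerebella, with overlap. The 8 endothelial and mural markers summed to 249 to 305 and 308 to 356 CPM, narrowly without overlap. Of these 8 genes, only 1 was higher without overlap (*Vtn*) and 1 was lower without overlap (*Pecam1*). The 6 neutrophil markers summed to 1.22 to 1.5 CPM in WT and to 1.86, 6.67 and 3.03 CPM in *Snx14*-KO cerebella, highest in replicate 2 and not in replicate 3. The 6 monocyte markers summed to 47.8 to 52.5 CPM in WT and 46.2, 50.8 and 61.9 CPM in *Snx14*-KO cerebella, most of it *Vcan*, which other brain cells also make. The monocyte receptor *Ccr2* was at 0.231 to 0.376 CPM in WT and 0.542 to 1.05 CPM in *Snx14*-KO cerebella, highest in replicate 1. *Ly6c2* of the same list went the opposite way, at 0.29 to 0.44 CPM in WT and 0.16 to 0.28 CPM after loss of *Snx14*. Both genes had low levels. Without overlap, 2 of the 6 monocyte genes rose and 1 fell.

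**Figure D3:**
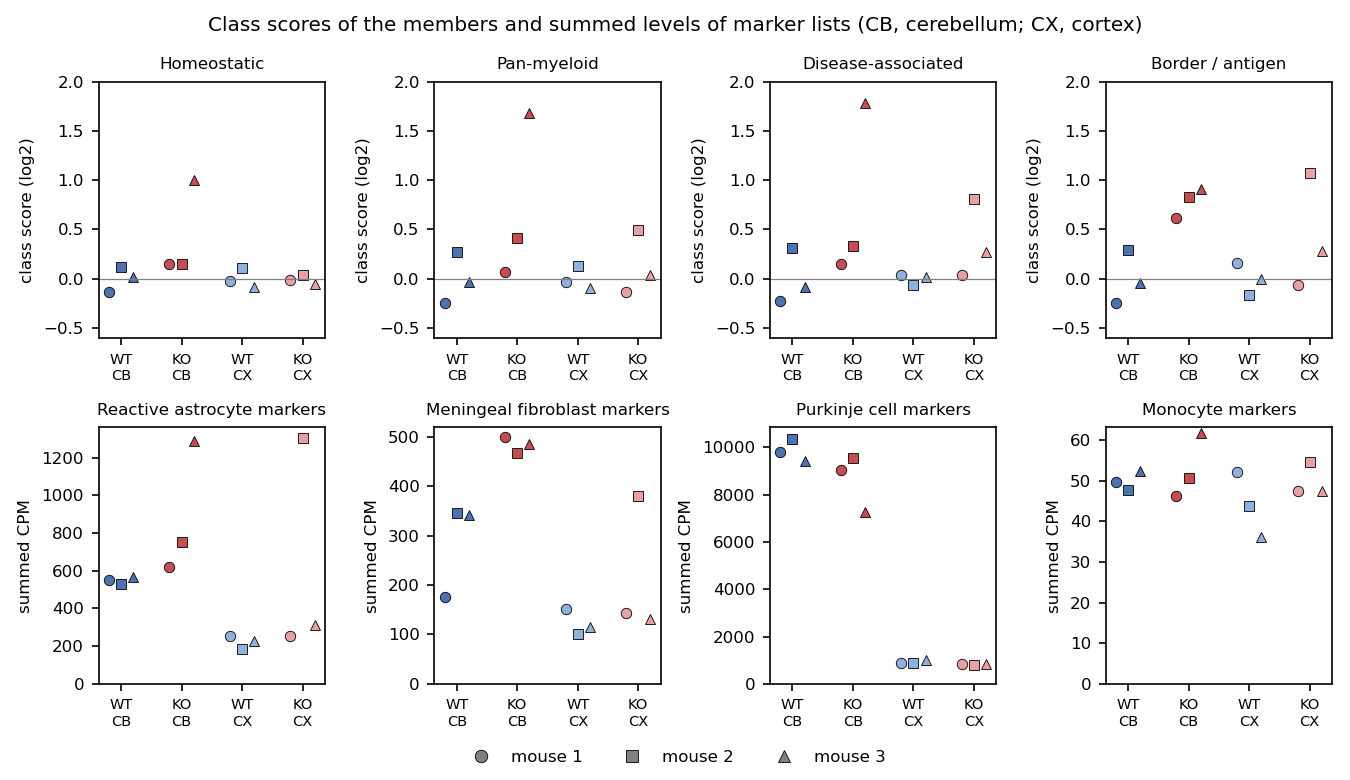
The upper panels give the score of each class per library (mean log2(CPM + 1) relative to the WT mean of the tissue), and the lower panels the summed CPM of 4 marker lists, with shapes for mouse numbers. *Snx14*-KO cerebellum 3 is the highest cerebellar library in all 4 classes and *Snx14*-KO cortex 2 the highest cortical library in all but the homeostatic class, and the same libraries hold the highest reactive astrocyte sums, 1290 and 1304 CPM.

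Ligands, transcription factors and further receptors of microglia gave the same direction with fewer genes past an unadjusted p of 0.05. Of 10 growth and signal ligands, 8 were tested, 6 were higher, and the median log2 fold change was 0.26. *Il34*, the neuronal ligand of CSF1R, was at 5.67, 6.06 and 4.13 CPM in WT and at 11.3, 7.44 and 10.9 CPM in *Snx14*-KO cerebella, which did not overlap (log2 fold change 0.92 ± 0.21 SE, adjusted p = 0.217). *Tgfb1*, which maintains the homeostatic state, was at 4.67 to 5.48 CPM in WT and 6.84 to 8.88 CPM in *Snx14*-KO cerebella (0.59 ± 0.17, adjusted p = 0.358). Of 12 myeloid transcription factors, 11 were tested, 9 were higher, and the median was 0.57. *Spi1*, which encodes PU.1, was at 1.33, 1.90 and 1.83 CPM in WT and 2.20, 2.7 and 5.96 CPM in *Snx14*-KO cerebella, and *Irf8* at 1.93 to 3.23 CPM in WT and 3.42 to 8.99 CPM in *Snx14*-KO cerebella, both highest in replicate 3.

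Of 35 further receptors and signalling genes, 34 were tested and 31 were higher, 9 of them at an unadjusted p under 0.05, with a median log2 fold change of 0.66. The endotoxin receptor *Tlr4* was at 1.00 to 1.67 CPM in WT and 2.7 to 3.36 CPM in *Snx14*-KO cerebella, and its co-receptor *Cd14* at 1.10 to 1.72 CPM in WT and 2.39, 2.54 and 6.18 CPM in *Snx14*-KO cerebella, with adjusted p values of 0.204 and 0.387. Of 14 inflammatory cytokines and chemokines, 9 were too low to test. The 5 tested were higher, with a median of 1.52, among them *Ccl9* (0.859 to 1.73 CPM in WT, 2.01, 4.19 and 5.42 CPM in *Snx14*-KO cerebella) and *Cxcl16* (1.56 to 2.02 CPM in WT, 2.30, 2.76 and 5.42 CPM in *Snx14*-KO cerebella). *Cd14*, *Ccl9* and *Cxcl16* were highest in *Snx14*-KO replicate 3. *Tnf* and *Il1b*, which encode classic inflammatory cytokines, were at 0.108 CPM or less and 0.268 CPM or less in every cerebellar library. No gene of these 4 lists passed both thresholds. Leaving out *Snx14*-KO replicate 3 gave medians of 0.26 for ligands, 0.09 for transcription factors, 0.14 for further receptors and 0.68 for the 6 cytokines and chemokines then tested.

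The promoters of 31 of the 40 genes were matched in the RefSeq table, as windows from 250 bases before to 50 bases after the start on GRCm38.p6. Windows are shown for genes with contrasting layouts in the cerebellum: *P2ry12*, which differed little, *Trem2*, *Cd68* and *Gpnmb*, which were high in *Snx14*-KO replicate 3, and *H2-Aa*, which was high in all 3 *Snx14*-KO libraries. The windows are at chr3:59262936-59263235 (minus strand, *P2ry12*), chr17:48346151-48346450 (plus, *Trem2*), chr11:69666121-69666420 (minus, *Cd68*), chr6:49036268-49036567 (plus, *Gpnmb*) and chr17:34287774-34288073 (minus, *H2-Aa*). Capitals mark GAGGAAG, a core of PU.1 sites, TGACTCA, a core of AP-1 sites, and CCAAT, the core of CCAAT boxes, or their reverse complements.
P2ry12: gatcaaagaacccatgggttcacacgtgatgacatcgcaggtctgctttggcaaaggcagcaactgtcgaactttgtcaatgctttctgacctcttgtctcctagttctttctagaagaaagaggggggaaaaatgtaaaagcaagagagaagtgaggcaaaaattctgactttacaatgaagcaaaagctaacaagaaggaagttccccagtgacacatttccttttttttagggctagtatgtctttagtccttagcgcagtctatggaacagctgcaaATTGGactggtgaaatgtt
Trem2: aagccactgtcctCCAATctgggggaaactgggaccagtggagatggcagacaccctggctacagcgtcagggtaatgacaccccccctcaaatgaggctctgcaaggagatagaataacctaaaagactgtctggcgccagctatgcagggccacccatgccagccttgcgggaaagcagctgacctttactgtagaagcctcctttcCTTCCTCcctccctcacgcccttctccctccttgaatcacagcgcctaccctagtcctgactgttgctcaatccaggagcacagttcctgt
Cd68: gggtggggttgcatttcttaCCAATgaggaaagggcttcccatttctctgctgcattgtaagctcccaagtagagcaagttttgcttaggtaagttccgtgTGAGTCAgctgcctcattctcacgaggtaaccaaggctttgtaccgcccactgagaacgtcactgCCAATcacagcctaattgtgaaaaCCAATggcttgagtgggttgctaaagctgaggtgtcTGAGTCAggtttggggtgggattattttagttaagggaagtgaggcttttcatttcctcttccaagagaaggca
Gpnmb: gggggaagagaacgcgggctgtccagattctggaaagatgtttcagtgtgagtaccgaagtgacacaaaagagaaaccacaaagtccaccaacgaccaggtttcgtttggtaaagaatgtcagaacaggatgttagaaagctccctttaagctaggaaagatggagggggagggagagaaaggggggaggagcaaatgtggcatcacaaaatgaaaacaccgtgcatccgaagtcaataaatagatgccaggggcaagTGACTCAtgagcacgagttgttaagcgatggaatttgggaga
H2-Aa: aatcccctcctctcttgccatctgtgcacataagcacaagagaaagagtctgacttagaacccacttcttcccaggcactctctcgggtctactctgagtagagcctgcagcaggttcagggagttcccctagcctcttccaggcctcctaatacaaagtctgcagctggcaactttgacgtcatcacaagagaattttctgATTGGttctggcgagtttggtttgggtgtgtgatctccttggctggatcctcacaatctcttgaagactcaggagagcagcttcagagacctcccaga

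Searched on both strands, GAGGAAG was found in 13 of the 31 members with a window, among them *Trem2*, *Laptm5*, *Fcrls*, *Axl*, *Mrc1* and *F13a1*, and in 15.4% of all 27025 genes with a window. The shorter AGGAAG, which lies within it, was found in 21 members and 38.4% of genes, and the longer GAGGAAGT in 4 members and 3.69% of genes. TGACTCA was found in *Cd68*, *Itgax* and *Gpnmb*, and in 5.95% of genes. *Cd68* holds it at 149 and 24 bases before the start and *Gpnmb* at 8 bases after it. CCAAT was found in 17 members and 41.1% of genes, and TATAAA in 6 members and 15.7% of genes. The sequence CACGTGA was in 2 members and 4.29% of genes, and TTCCGGAA in 0 members and 0.792% of genes. A consensus NF-kB site was in 0 members and 0.174% of genes. A longer spelling of the E box, a longer one of the AP-1 site and the longest one searched of the PU.1 site were in 0 members, and in 0.0185%, 0.0407% and 0.0481% of genes. The motifs and the 5 windows were chosen after values had been seen, and TGAGTCA is the reverse complement of TGACTCA. These matches describe letters in the windows and say nothing of binding.

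In cortex the homeostatic genes were near their WT levels, and *Mrc1*, *F13a1* and *Cd74* of the border macrophage class were highest in *Snx14*-KO replicate 2. Of 36 members tested, 25 had higher and 11 had lower means after loss of *Snx14*. The median log2 fold change was 0.11, where that of all 18255 genes was 0.00. The class medians were -0.01 for homeostatic, 0.15 for pan-myeloid, 0.18 for disease-associated and 0.93 for border macrophage genes. The disease-associated median rests on 6 of the 10 genes, as 4 were too low to be tested. Over all 10 genes it was 0.95 without the filter and 0.95 in the fit of all 12 libraries. No member was called by edgeR, against 0.00548% of all genes, and DESeq2 called 0 members and 0.0493% of genes. A fit of all 12 libraries called 0 members and 0.0103% of genes, and a fit without the filter on low counts 8 members and 0.472%. At an unadjusted p under 0.05, 8 members were higher and 0 lower, against 2.24% and 2.26% of all genes. For 7 of 40 members all *Snx14*-KO values exceeded all WT values, and for 0 they were all lower, against 4.57% and 4.67% of all genes (4.51% and 4.74% when normalized within the tissue).

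Of the homeostatic genes, *Fcrls* was at 31.9, 37.4 and 32.8 CPM in WT cortices 1 to 3 and at 38.5, 48.8 and 43.0 CPM in *Snx14*-KO cortices 1 to 3, without overlap and with a log2 fold change of 0.35 ± 0.10 (SE, adjusted p = 0.99). *P2ry12* was at 59.2, 61.5 and 50.3 CPM in WT and 55.1, 39.7 and 52.2 CPM in *Snx14*-KO cortices, for a log2 difference of -0.22 ± 0.12. *Selplg* was at 24.3, 26.9 and 23.8 CPM in WT and 25.0, 16.8 and 23.2 CPM in *Snx14*-KO cortices, one of -0.21 ± 0.13. *Snx14*-KO replicate 2 was the lowest of the 6 cortical libraries for *P2ry12* and *Selplg*, and also for *P2ry13* and *Tmem119*, at 0.67 to 0.79 times the WT mean in these 4 genes. Without it the log2 fold changes were 0.26 for *Fcrls*, -0.09 for *P2ry12* and -0.05 for *Selplg*. It was the highest of the 6 for 6 other homeostatic genes, and its class score was 0.04.

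In the pan-myeloid class, *Tyrobp* was at 9.72, 12.1 and 9.90 CPM in WT and 13.8, 15.5 and 12.6 CPM in *Snx14*-KO cortices, without overlap (log2 fold change 0.40 ± 0.14 SE, adjusted p = 0.996, and 0.31 without replicate 2). *Lyz2* was at 6.85, 7.25 and 6.94 CPM in WT and 8.32, 24.2 and 8.47 CPM in *Snx14*-KO cortices (0.97 ± 0.34, adjusted p = 0.996). *Cd68* was at 7.33, 9.45 and 6.2 CPM in WT and 8.0, 14.6 and 8.11 CPM in *Snx14*-KO cortices (0.42 ± 0.24, adjusted p = 0.996). In *Lyz2* and *Cd68*, *Snx14*-KO replicate 2 was above the other 5 libraries, and without it the log2 fold changes were 0.26 and 0.07.

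Levels of the disease-associated genes differed widely in cortex, from *Cst7* at 0 to 1.43 CPM to *Axl* at 46.3 to 62.2 CPM. *Gpnmb* was at 1.91, 1.61 and 1.14 CPM in WT and 1.88, 6.09 and 2.68 CPM in *Snx14*-KO cortices (log2 fold change 1.20 ± 0.40 SE, adjusted p = 0.996), and *Spp1*, which encodes osteopontin, at 9.14, 5.58 and 7.51 CPM in WT and 8.19, 20.2 and 7.63 CPM in *Snx14*-KO cortices (0.70 ± 0.33, adjusted p = 0.996). *Cd63*, a tetraspanin of late endosomes, was at 47.4, 40.2 and 43.3 CPM in WT and 44.8, 60.2 and 50.9 CPM in *Snx14*-KO cortices (0.25 ± 0.11, adjusted p = 0.996). All 3 genes were highest in *Snx14*-KO replicate 2 and overlapped between the genotypes. Without this library the log2 fold changes were 0.55 for *Gpnmb*, 0.09 for *Spp1* and 0.13 for *Cd63*. *Cst7*, not tested, had 0, 0 and 2 counts in WT cortices and 4, 26 and 5 counts in *Snx14*-KO cortices.

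In the border macrophage class, *Snx14*-KO replicate 2 was the highest of the 6 cortices for 5 of 7 genes, while *Cd163* (0.938, 2.74 and 3.04 CPM in *Snx14*-KO cortices) and *Pf4* (0.188, 0.768 and 1.07 CPM) were highest in replicate 3. *Mrc1* was at 4.62, 3.76 and 3.76 CPM in WT and 4.69, 22.0 and 5.90 CPM in *Snx14*-KO cortices, for a log2 difference of 1.43 ± 0.47 (SE, adjusted p = 0.996). *F13a1* was at 1.33, 1.93 and 2.11 CPM in WT and 2.75, 7.95 and 2.38 CPM in *Snx14*-KO cortices, one of 1.30 ± 0.42, and *Cd74* at 2.60, 1.83 and 2.22 CPM in WT and 3.06, 7.19 and 2.92 CPM in *Snx14*-KO cortices, one of 0.99 ± 0.34 (adjusted p = 0.996 for both). The groups did not overlap, though replicates 1 and 3 were at 1.16 and 1.46 times the WT mean for *Mrc1* and at 1.38 and 1.32 times for *Cd74*. Without *Snx14*-KO replicate 2, the log2 fold changes were 0.39 for *Mrc1*, 0.52 for *F13a1* and 0.43 for *Cd74*, the median of the class fell from 0.93 to 0.07, and that of all members tested was -0.03.

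The same library held the highest values of other cell types. All 12 meningeal fibroblast markers were highest in *Snx14*-KO cortex replicate 2, with a sum of 380 CPM against 101 to 152 CPM in the other 5 cortices. All 8 reactive astrocyte markers were highest in it too, at 1304 CPM against 186 to 314 CPM, and *Gfap* alone was at 1047 CPM there. Its oligodendrocyte marker sum was the lowest, 5689 CPM against 7434 to 8415 CPM. Their part in the microglial values was not tested. The mouse of this library, number 2, had a score over all 40 genes of 0.54 in cortex and 0.39 in cerebellum, while *Snx14*-KO mouse 3 had 0.11 in cortex and 1.37 in cerebellum.

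**Figure D4:**
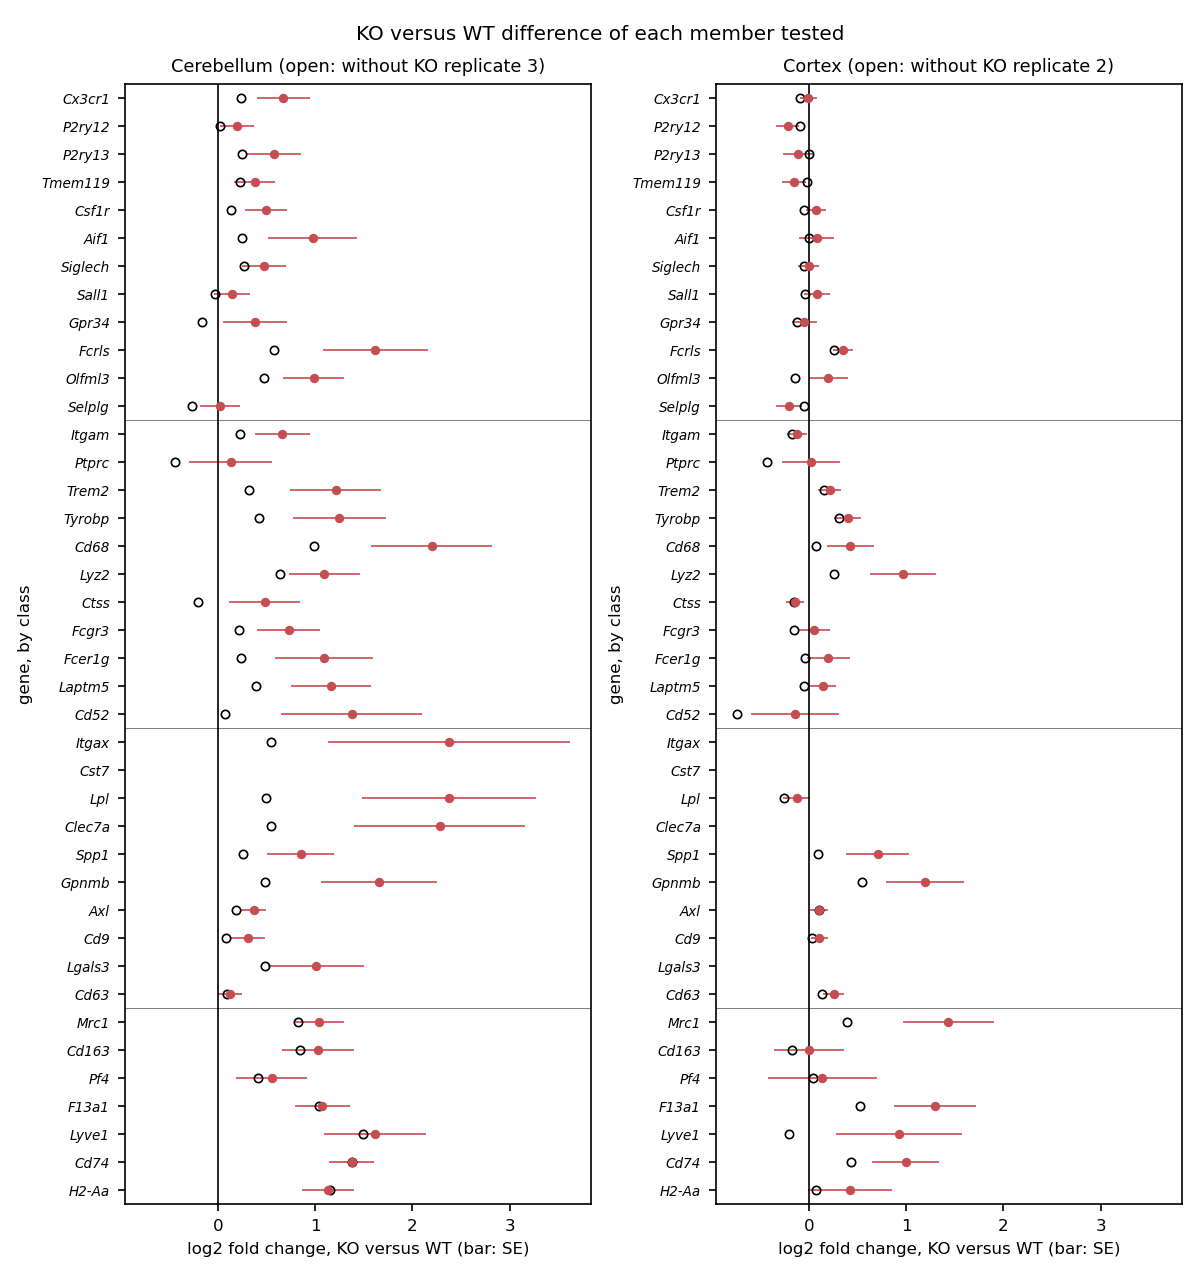
Log2 fold change between *Snx14*-KO and WT of each member tested, with a bar for the SE, in cerebellum (left) and cortex (right), grouped by class from homeostatic at the top to border macrophage at the bottom. Open circles leave out *Snx14*-KO cerebellum replicate 3 or *Snx14*-KO cortex replicate 2, and the open circles of the border macrophage class stay near the filled ones in cerebellum (medians 1.04 and 1.07) but not in cortex (0.07 and 0.93).

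Among genes outside the 40 in cortex, the 8 ligands tested had a median log2 fold change of 0.17, the 12 transcription factors 0.10, the 34 further receptors and signalling genes 0.10 and the 7 cytokines and chemokines 0.25. No gene of these lists passed both thresholds, and without *Snx14*-KO replicate 2 the medians were -0.02, 0.05, -0.01 and -0.09. *Il34* was at 48.7 to 56.2 CPM in WT and 51.9 to 59.1 CPM in *Snx14*-KO cortices, and *Tgfb1* at 4.10 to 4.78 and 2.92 to 6.64 CPM, with overlapping groups for both. *Adgre1*, which encodes the macrophage antigen F4/80, was at 6.54 to 7.30 CPM in WT and 7.32, 12 and 9.06 CPM in *Snx14*-KO cortices, again highest in replicate 2.

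The log2 fold change between *Snx14*-KO and WT was larger in cerebellum than in cortex for 35 of the 40 members, with a median difference of 0.49, against -0.00 over all 19380 genes. By the interaction term in edgeR no member was called, as was true of all genes (0%), and DESeq2 called 0 members and 0.181% of genes. Without the filter on low counts 10 members and 1.12% of genes were called. Without *Snx14*-KO cerebellum replicate 2, 0 members and 1.28% of genes were called, and without both libraries of *Snx14*-KO mouse 2, 0 members and 1.25%. At an unadjusted p under 0.05 there were 4 members, all larger in cerebellum, where 3.97% of all genes were larger and 1.71% smaller. These were *Cx3cr1* (0.66 ± 0.31 SE), *Itgam* (0.77 ± 0.31), *Cd68* (1.75 ± 0.74) and *Lpl* (2.48 ± 0.96). Without *Snx14*-KO cerebellum replicate 3 the differences were 0.24, 0.34, 0.57 and 0.63 in that order, and none of the 4 had an unadjusted p under 0.05. *Itgam*, the integrin CD11b, was at 7.39, 8.83 and 10.4 CPM in WT and 10.6, 10 and 21.0 CPM in *Snx14*-KO cerebella, and at 32.5, 32.0 and 26.5 CPM in WT and 25.9, 29.7 and 28.0 CPM in *Snx14*-KO cortices. Of its exon bases, 68.7% are also exon sequence of the gene *Gm49368*, which shares these reads.

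Next in order of unadjusted p in their classes were *Fcrls* (1.25 ± 0.59 SE), *Tmem119* (0.52 ± 0.26), *Laptm5* (1.00 ± 0.48), *Axl* (0.25 ± 0.17), *Cd9* (0.18 ± 0.21), *Cd163* (1.01 ± 0.57), *H2-Aa* (0.70 ± 0.53) and *Cd74* (0.37 ± 0.45). Without *Snx14*-KO cerebellum replicate 3 these were 0.22 for *Fcrls*, 0.38 for *Tmem119*, 0.24 for *Laptm5*, 0.08 for *Axl*, -0.03 for *Cd9*, 0.84 for *Cd163*, 0.73 for *H2-Aa* and 0.38 for *Cd74*. Without *Snx14*-KO cortex replicate 2, *Cd74* was at 0.93 and *H2-Aa* at 1.04. *Tmem119* was at 8.67, 9.58 and 5.58 CPM in WT and 9.23, 9.26 and 12.1 CPM in *Snx14*-KO cerebella, and at 25.3, 26.9 and 23.5 CPM in WT and 24.9, 18.3 and 24.8 CPM in *Snx14*-KO cortices. Its groups overlapped in both tissues. The smallest adjusted p of the 40 was 0.729, for *Lpl*. Leaving out *Snx14*-KO cerebellum replicate 3 took the median difference from 0.49 to 0.09, and leaving out both libraries of *Snx14*-KO mouse 2 took it to 0.98.

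The WT cerebella and cortices compared next are the same libraries that served as controls above. Homeostatic microglial genes were lower in WT cerebellum than in WT cortex, while several disease-associated genes were higher. Of 37 members tested, edgeR called 26, 5 higher and 21 lower in cerebellum, where 40.4% of all genes were called, 19.0% higher and 21.4% lower. DESeq2 called 26 members and 38.9% of genes, and the unfiltered fit 29 members and 26.5%. With the mouse as a block 26 members and 40.2% of genes were called. All 12 homeostatic genes were lower. Their log2 fold changes lay between -1.19 and -2.05, the median was -1.59, and the median of all genes tested was 0.02. *P2ry12* was at 11.9, 15.9 and 13.5 CPM in WT cerebella and 59.2, 61.5 and 50.3 CPM in WT cortices, and *Cx3cr1* at 15.3, 19.7 and 17.3 CPM and 58.4, 61.8 and 56.9 CPM. *Csf1r* was at 45.8, 52.3 and 45.7 CPM in WT cerebella and 120, 129 and 106 CPM in WT cortices. The tissues did not overlap in these 3 genes (31.6% of all genes were higher without overlap and 32.7% lower), with log2 fold changes of -2.05 ± 0.12 (SE), -1.75 ± 0.10 and -1.30 ± 0.09 and adjusted p values of 1.52e-07, 1.03e-07 and 5.21e-07.

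*Siglech*, a sialic acid-binding lectin of microglia, was at 3.78, 5.48 and 5.58 CPM in WT cerebella and 19.1, 20.6 and 18.6 CPM in WT cortices (log2 fold change -1.97 ± 0.16 SE, adjusted p = 2.06e-06). *Selplg* was at 10.5, 9.29 and 11.0 CPM and 24.3, 26.9 and 23.8 CPM (-1.28 ± 0.11, adjusted p = 3.20e-06). In the pan-myeloid class 8 genes were lower and 1 higher in cerebellum. *Itgam* (-1.77 ± 0.14, adjusted p = 1.70e-06) and *Laptm5* (-1.48 ± 0.11, adjusted p = 8.92e-07) were among the lower ones, the latter at 11.3, 10.8 and 9.5 CPM in WT cerebella and 31.9, 29.3 and 27.4 CPM in WT cortices. *Lyz2* was the higher one, at 7.84, 16.3 and 11.3 CPM against 6.85, 7.25 and 6.94 CPM (0.75 ± 0.23, adjusted p = 0.0171). *Lyz2* was not called without WT cerebellum replicate 2 (0.45), WT cortex replicate 1 (0.73) or WT cortex replicate 3 (0.74). Of the lower genes, *Tyrobp* (-0.57) kept its call only without WT cerebellum replicate 2 among the 6 fits that leave out 1 library, and *Fcer1g* (-0.89) was not called without WT cortex replicate 2. *Ptprc* and *Cd52* did not pass.

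The disease-associated class was split. *Spp1* was at 32.5, 43.7 and 28.3 CPM in WT cerebella and 9.14, 5.58 and 7.51 CPM in WT cortices, a log2 fold change of 2.24 ± 0.20 (SE, adjusted p = 4.04e-06). *Cd9* (0.73), *Cd63* (1.10) and *Lgals3* (2.7), a lectin that binds galactosides, were also higher in cerebellum, while *Lpl* was lower (-2.80 ± 0.38). The *Lgals3* value rests on low counts, 24, 30 and 70 in WT cerebella and 4, 7 and 8 in WT cortices. *Spp1*, *Cd9* and *Cd63* are made by other brain cells as well, and the astrocyte and oligodendrocyte marker sums were also higher in WT cerebella, at 7403 to 8041 and 11220 to 14670 CPM, than in WT cortices, at 6063 to 6914 and 8061 to 8415 CPM. Their part in these differences was not tested. Of the 7 border macrophage genes, 0 passed by edgeR or by DESeq2, 0 had an unadjusted p under 0.05 (30.9% of all genes were higher and 31.0% lower at that level), and their log2 fold changes ran from -0.36 to 0.38.

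CPM per kilobase of exon gives only a rough scale for comparing genes, because the length used holds the exons of all annotated transcripts. On it the most abundant homeostatic genes were *P2ry12*, *Csf1r*, *Fcrls* and *Cx3cr1* in WT cortex, at 22.4, 20.5, 14.6 and 13.1, and *Csf1r* and *P2ry12* in WT cerebellum, at 8.31 and 5.41. *Ctss*, the lysosomal protease cathepsin S, was the most abundant pan-myeloid gene in both, at 45.8 in WT cortex and 27.4 in WT cerebellum. *Itgax*, *Cst7* and *Clec7a* were at 0.0459, 0.0385 and 0.0919 in WT cortex and at 0.0920, 0.409 and 0.449 in WT cerebellum. The border macrophage genes lay between 0.252 (*Lyve1*) and 1.53 (*Cd74*) in WT cerebellum and between 0.265 (*F13a1*) and 1.32 (*Cd74*) in WT cortex.

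Of the 8 growth and signal ligands tested, 5 were higher and 3 lower in WT cerebellum, with a median log2 fold change of 0.17. The 2 ligands called lower were *Il34* and *Cx3cl1*. *Il34* was at 5.67, 6.06 and 4.13 CPM in WT cerebella and 48.7, 56.2 and 50.0 CPM in WT cortices (log2 fold change -3.29 ± 0.13 SE, adjusted p = 8.89e-09). *Cx3cl1*, fractalkine, was at 67.7, 65.3 and 74.3 CPM and 730, 705 and 815 CPM (-3.44 ± 0.09, adjusted p = 3.17e-10). In all, 3 of the 8 ligands were called, 1 higher and 2 lower, and 10 of the 12 transcription factors, 4 higher and 6 lower, where 40.4% of all genes were called, 19.0% higher and 21.4% lower.

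**Figure D5:**
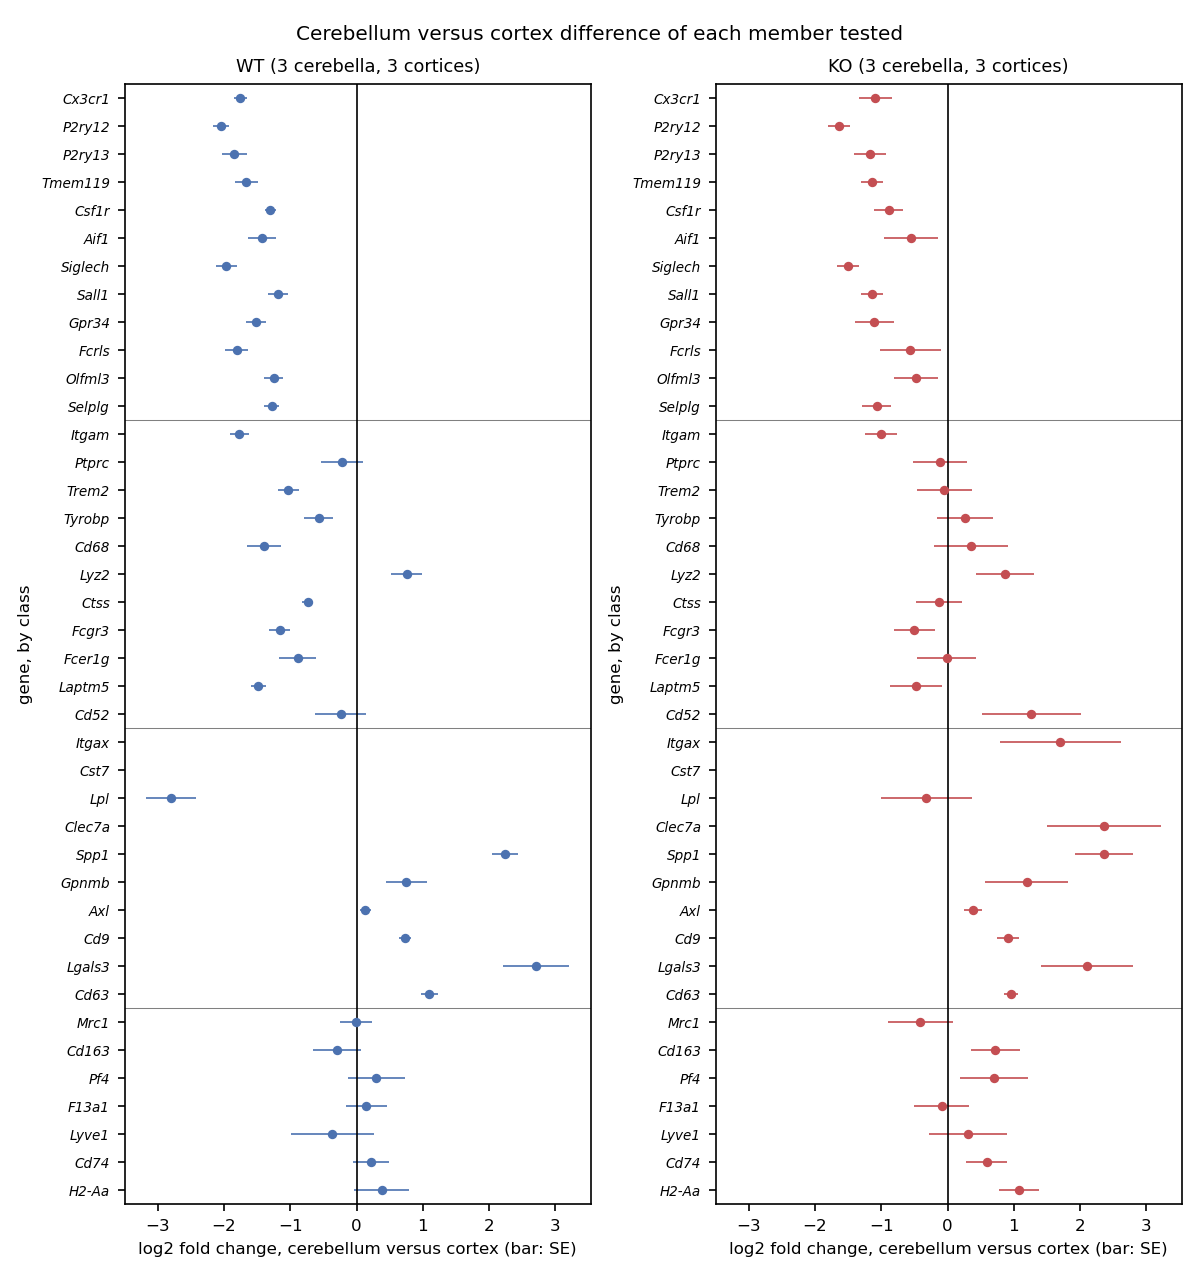
Log2 fold change between cerebellum and cortex of each member tested, with a bar for the SE, in WT (left) and *Snx14*-KO (right) libraries. The 12 homeostatic genes at the top lie below 0 in both panels, with medians of -1.59 and -1.10, and the pan-myeloid genes lie nearer 0 and have longer bars in *Snx14*-KO libraries.

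In *Snx14*-KO mice 16 of 39 members tested passed, 6 higher and 10 lower in cerebellum, where 37.9% of all genes passed, 18.2% higher and 19.6% lower. DESeq2 called 14 members and 36.1% of genes, the unfiltered fit 23 members and 24.5%, the fit with the mouse as a block 15 members and 37.0%, and the fit without *Snx14*-KO cerebellum replicate 2 17 members and 35.1%. These libraries came from other mice than the WT ones. Calls in the same direction were made for 14 members in both genotypes, which is 53.8% of the WT calls and 87.5% of the *Snx14*-KO calls. Over all genes these shares were 80.7% and 86.2%. Of the 12 homeostatic genes, 9 passed, all lower, with *P2ry12* at 15.2, 12.7 and 18.9 CPM in *Snx14*-KO cerebella and 55.1, 39.7 and 52.2 CPM in *Snx14*-KO cortices (log2 fold change -1.64 ± 0.16 SE, adjusted p = 1.86e-05). *Siglech* was at 5.88, 6.01 and 8.56 CPM and 17.4, 20.5 and 20.2 CPM (-1.5 ± 0.17, adjusted p = 3.94e-05). *Sall1* was at 8.84, 8.88 and 12 CPM and 18.6, 25.3 and 21.6 CPM (-1.14 ± 0.16, adjusted p = 2.33e-04). The tissues did not overlap in these genes (29.8% of all genes were higher without overlap and 30.8% lower), nor in *Tmem119* (-1.14 ± 0.16) and *Selplg* (-1.07 ± 0.22).

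Higher in *Snx14*-KO cerebella than cortices were *Cd63* at 95.6, 102 and 103 CPM against 44.8, 60.2 and 50.9 CPM (log2 fold change 0.95 ± 0.10 SE, adjusted p = 3.56e-05), *Cd9* at 67.1, 87.1 and 113 CPM against 42.6, 52.4 and 47.6 CPM (0.91 ± 0.17), and *Spp1* at 45.2, 37.9 and 103 CPM against 8.19, 20.2 and 7.63 CPM (2.36 ± 0.44), as in WT. *Clec7a* (2.36 ± 0.86) and *H2-Aa* (1.08 ± 0.30) passed in *Snx14*-KO and not in WT mice, where *Clec7a* was not tested. *H2-Aa* also passed with the mouse as a block (1.12) and in each of the other fits. *Clec7a* did not pass with the mouse as a block (1.94), by DESeq2, or without *Snx14*-KO cerebellum replicate 3 (0.65) or cortex replicate 1 or 3, and in WT mice it passed without the filter on low counts, without WT cortex replicate 3 and without WT cerebellum replicate 1. Among pan-myeloid genes 1 of 11 passed, *Itgam*, against 9 of 11 in WT mice, and 12 members in all passed in WT mice alone. The difference between the contrasts is the interaction given above, in which no member passed. Without *Snx14*-KO cerebellum replicate 3, 24 members and 36.8% of all genes passed in *Snx14*-KO mice, and the median over the members tested went from -0.09 to -0.80.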

How the data were processed

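RNA-Seq reads were trimmed and aligned by the authors to GRCm38 with STAR, and the deposited files hold raw counts per gene, made with featureCounts (Subread 2.0.1) with overlapping features counted, multi-mapping reads not counted and strand ignored, so reads of overlapping genes cannot be told apart. Gene IDs were matched to GENCODE symbols. Counts were filtered with filterByExpr, normalized with TMM and tested with edgeR 4.0.16 (quasi-likelihood, Benjamini-Hochberg adjustment, R 4.3.3), separately for each comparison of 3 against 3 libraries, and in 1 fit for the interaction. A call took an adjusted p below 0.05 with a log2 fold change beyond 0.50 in size. SE is the log2 fold change divided by the root of F. DESeq2 1.42.0, other size factors, no filter, a replicate block, 1 fit of 12 libraries and leaving out each library were alternatives. Leaving out a mouse in the interaction was added after seeing the data. The scripts were tested on simulated data, where a call took only an adjusted p under 0.05. For *Snx14*-KO versus WT cerebellum, 11.3% of edgeR calls and 22.2% of DESeq2 calls were false, so the error rate was above the one set. There edgeR recovered 68% and DESeq2 72% of simulated log2 changes of 1 in size. False calls were 10.1% and 10.9% for cortex, and 6.56% and 10.9% between WT tissues.

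The members and lists were chosen with earlier results of these data known. All 40 members were tabulated. For each comparison between genotypes and for the interaction, values were given for the 3 members of each class with the smallest unadjusted p, and between tissues for the 8 smallest. Other genes and members were named after their values were seen. Mouse numbers mark the same mouse in both tissues per the labels, so tissues are paired. Between genotypes they are only numbers within a group. The result of 1 listed gene is not reported here.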

Additional observations from a re-analysis of the deposited data

How the results depend on the processing

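Without a filter on low counts, 13 members passed in *Snx14*-KO cerebellum, 8 in *Snx14*-KO cortex and 10 in the interaction, where the filtered fits called 0, and DESeq2 called 3 in cerebellum. Between WT tissues the median was -0.89 over the 37 members of the filtered fit and -0.66 over the 40 of the unfiltered fit. The homeostatic median was -1.59 and -1.60 in these fits, and the pan-myeloid median -0.89 and -0.90. The cause of the added calls was not tested. Leaving out 1 library at a time gave member medians of 0.27 to 1.14 in cerebellum, -0.03 to 0.26 in cortex, 0.09 to 0.79 in the interaction, -0.66 to -1.15 between WT tissues and -0.80 to 0.33 between *Snx14*-KO tissues. The last median reversed to 0.33 without *Snx14*-KO cortex replicate 2, to 0.23 without cerebellum replicate 1 and to 0.14 without cerebellum replicate 2. *Cd68* reversed there from 0.35 to -0.83 without cerebellum replicate 3, and ranged up to 0.74 without replicate 1. The interaction median was 0.98 without *Snx14*-KO mouse 2 and 0.10 without *Snx14*-KO mouse 3, and 0.09125 without *Snx14*-KO cerebellum replicate 3. With the replicate block, 0 members passed in cerebellum (median 0.90), cortex and the interaction, 26 between WT tissues and 15 between *Snx14*-KO tissues. Same-numbered WT and *Snx14*-KO libraries were not paired, with correlations of deviations from -0.01 to 0.08 in cerebellum and -0.04 to 0.11 in cortex. With 3 libraries a group, 1 library can carry a difference.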
